A study of Caenorhabditis elegans with 12 samples.

Results

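The H3K9me2 peaks on the 2 arms of *C. elegans* chromosome II numbered 2206 of the 16340 peaks in the 2 deposited lists. A peak was a member when its midpoint lay before 4.88 Mb (left arm) or at or after 12.02 Mb (right arm) of chromosome II in the WS220/ce10 genome. For the *wdr-5* experiment, 1367 of the 10457 listed peaks lay there (804 on the left arm and 563 on the right), and for the *jhdm-1* experiment 839 of 5883 did (459 and 380). The arms made up 53.3% of chromosome II and 8.12% of the span of all chromosomes, each measured up to its outermost peak. Of all chromosome II peaks, they held 90.6% (*wdr-5* list) and 85.2% (*jhdm-1* list).

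Both experiments used H3K9me2 ChIP-seq, in which DNA bound to histone H3 dimethylated at lysine 9 is pulled down with an antibody and sequenced. The animals were whole, mixed-stage populations. The *wdr-5* experiment had 6 groups: early-, mid- and late-gen wild type (strain N2) and early-, mid- and late-gen *wdr-5 (ok1417)* mutants, where early, mid and late refer to the number of generations since the population was founded. By the study's methods each of these groups had 3 replicates. The *jhdm-1* experiment had 4 groups, early- and mid-gen N2 and early- and mid-gen *jhdm-1 (ok2364)* mutants, with 2 replicates each. The labels state that 1 wild-type library of the early-gen group and 1 of the mid-gen group belong to both experiments, so 2 libraries were shared. Each list is the union over its groups of the peaks found in at least 2 replicates of a group. A peak therefore does not show in which genotype or generation it was called, and the number of groups, the number of replicates and the mix of read lengths differed between the experiments. What these differences contribute to a difference between the lists cannot be told apart from the genotypes. The lists give positions without scores or read counts, so depth is unknown, no result has a replicate error and no test between groups was made. The intervals given are 95% intervals for counting error only. Peaks are not replicates, and neighbouring peaks may not be independent, so the intervals can be too narrow.

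H3K9me2 is a mark of repressed chromatin. In *C. elegans* the methyltransferase MET-2 places most of it, the mark gathers on the distal arms of the autosomes and is sparse in their centres, and the marked arms are held at the nuclear periphery. The arms are richer in repeats and transposon remnants than the gene-dense centres, and meiotic recombination is more frequent on them. WDR-5 is a subunit of the COMPASS complex, which methylates histone H3 at lysine 4, a mark of active genes. JHDM-1 is a putative H3K9me2 demethylase.

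Peak density on both arms was several times that in the centre of the same chromosome, and the fraction of bases under peaks lay between 11.4% and 12.6% on both arms in both lists. In the *wdr-5* list the density was 164.8 peaks per Mb on the left arm, 172.9 on the right arm and 19.9 in the centre. In the *jhdm-1* list it was 94.1, 116.7 and 20.4 peaks per Mb. The lists thus held similar numbers of peaks in the centre (142 and 146) and differed in number on the arms. Density on the left arm was 8.28 times that of the centre in the *wdr-5* list and 4.60 times in the *jhdm-1* list, and on the right arm it was 8.69 and 5.71 times.

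On the arms, the bases under peaks differed less between the lists than the number of peaks did, and in the centre they differed more. On the left arm, which is 4.88 Mb long, *wdr-5* peaks covered 587.7 kb or 12.0% and *jhdm-1* peaks covered 555.1 kb or 11.4%. On the right arm, 3.26 Mb long up to the last peak, they covered 401.5 kb or 12.3% and 409.8 kb or 12.6%. In the centre the *wdr-5* peaks covered 1.13% and the *jhdm-1* peaks 2.40%, so coverage of the arms was 10.7 and 10.9 times that of the centre in the first list and 4.74 and 5.25 times in the second. Both lists together covered 950.2 kb of the left arm (19.5%) and 697.9 kb of the right arm (21.4%). Of these bases, 20.3% on the left arm and 16.3% on the right arm lay under peaks of both lists.

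The ratio of left to right peak density was 0.953 in the *wdr-5* list (95% interval 0.856 to 1.06) and 0.806 in the *jhdm-1* list (0.704 to 0.923). The direction in the *wdr-5* list depended on where the arms were said to begin. With both boundaries moved 0.5 Mb towards the chromosome ends the *wdr-5* ratio was 1.03. When the outer 2 of 3 equal parts of the chromosome were taken as arms, it was 1.28, and the *jhdm-1* ratio was 0.994. The *jhdm-1* ratio was under 1 with every boundary tried. Coverage of the outer parts was 11.6% on the left and 8.65% on the right in the *wdr-5* list and 11.0% and 9.86% in the *jhdm-1* list, so the closeness of the arms in coverage also depended on the boundaries.

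On the left arm, H3K9me2 peaks were rare next to the boundary, and coverage by 1 Mb steps was highest in the middle of the arm. The highest single window of 250 kb in the *wdr-5* list (30.6%) lay further out, 3.5 to 3.75 Mb from the boundary. In steps of 1 Mb from the boundary outwards, *wdr-5* peaks covered 3.35%, 10.6%, 20.9% and 17.1% of the left arm, and 7.66% of the outermost 0.88 Mb. *jhdm-1* peaks covered 4.09%, 12.8%, 16.5%, 14.9% and 8.20% of the same steps. Coverage in both lists was thus highest in the third Mb and lower again towards the chromosome end. The number of *wdr-5* peaks in these steps was 57, 164, 240, 248 and 95, and the number of *jhdm-1* peaks was 43, 101, 115, 127 and 73.

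The right arm was already well covered at its boundary. *wdr-5* peaks covered 10.5%, 15.6% and 9.93% of 3 successive steps of 1 Mb and 16.2% of the last 0.256 Mb, and *jhdm-1* peaks covered 9.43%, 15.1%, 13.8% and 10.4%. In the 0.5 Mb on the arm side of the boundary there were 75 *wdr-5* peaks and 41 *jhdm-1* peaks on the right, against 6 and 16 on the left. On the centre side of the right boundary, the adjoining 0.5 Mb still held 31 and 45 peaks and was covered to 4.16% and 9.86%. On the centre side of the left boundary it held 13 and 11 peaks and was covered to 1.69% and 3.11%. The arm sides were covered to 10.2% and 7.30% on the right and to 0.767% and 2.84% on the left. Of these 4 cases, coverage was thus higher on the arm side than on the centre side in 1, that of the *wdr-5* list at the right boundary.

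**Figure D1:**
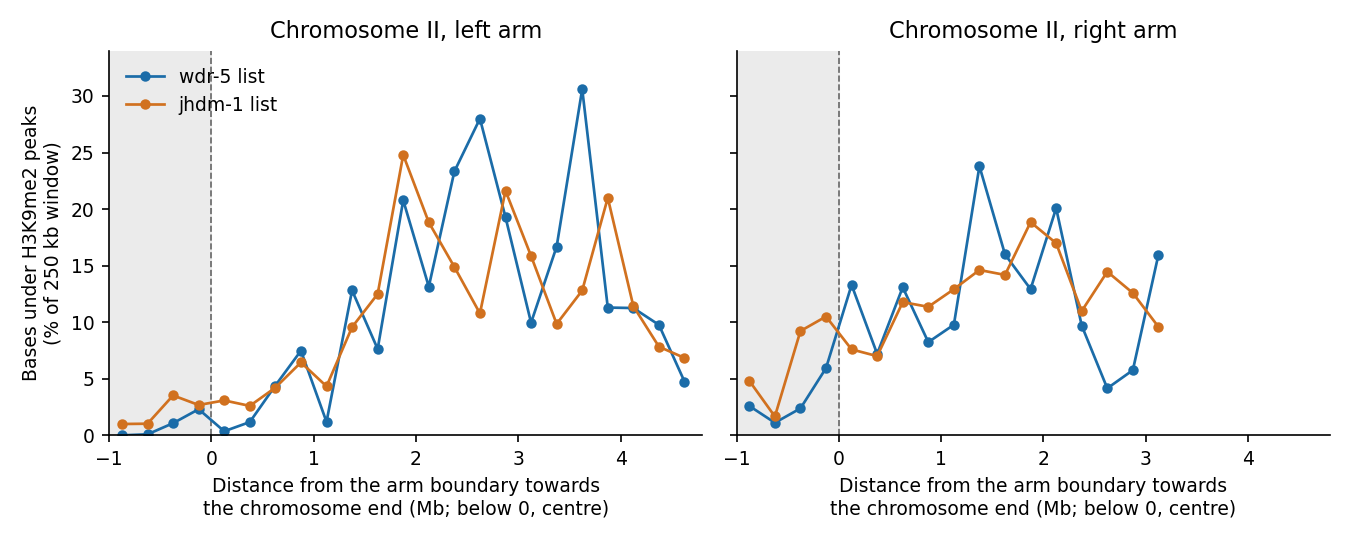
Bases under H3K9me2 peaks as a percent of each 250 kb window (y axis) against distance from the arm boundary in Mb (x axis; the grey zone below 0 is the centre), for the *wdr-5* list (blue) and the *jhdm-1* list (orange); a last window shorter than 250 kb is left out. On the left arm both lists begin under 4% and reach 30.6% and 24.8%, whereas on the right arm the *wdr-5* list is at 13.3% and the *jhdm-1* list at 7.60% in the window next to the boundary.

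The arms were also described in windows of 250 kb. Every one of the 19 full windows of the left arm and the 13 of the right arm held peaks of both lists. Coverage of the left windows ran from 0.359% to 30.6% in the *wdr-5* list (median 11.3%) and from 2.60% to 24.8% in the *jhdm-1* list (median 10.8%). The range was narrower for the right windows, 4.16% to 23.8% (median 12.9%) and 7.00% to 18.8% (median 12.6%). The lowest 2 windows of the left arm were in both lists those next to the boundary.

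The windows with most bases under peaks differed between the lists on the left arm. The highest *wdr-5* windows were chrII:1130001-1380000 with 30.6% (77 peaks), chrII:2130001-2380000 with 28.0% (58 peaks) and chrII:2380001-2630000 with 23.3% (52 peaks). In these windows *jhdm-1* peaks covered 12.8%, 10.8% and 14.9%. The highest *jhdm-1* windows were chrII:2880001-3130000 with 24.8% (43 peaks), chrII:1880001-2130000 with 21.6% (20 peaks) and chrII:880001-1130000 with 21.0% (42 peaks), where *wdr-5* peaks covered 20.8%, 19.3% and 11.3%. None of the highest 3 windows of one list was among the highest 3 of the other on this arm. The number of peaks was a poor guide to coverage in chrII:1880001-2130000, where 81 *wdr-5* peaks covered less than 20 *jhdm-1* peaks did.

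Of the highest 3 windows of the right arm, 2 were the same in both lists. chrII:13270001-13520000 was covered to 23.8% by *wdr-5* peaks and 14.6% by *jhdm-1* peaks, and chrII:14020001-14270000 to 20.1% and 17.0%. The highest *jhdm-1* window of this arm, chrII:13770001-14020000, was covered to 18.8% and held 12.9% under *wdr-5* peaks. In the lowest *wdr-5* windows of this arm, chrII:14520001-14770000 and chrII:14770001-15020000, *wdr-5* peaks covered 4.16% and 5.76% while *jhdm-1* peaks covered 14.5% and 12.6%.

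*jhdm-1* peaks on the arms were longer than *wdr-5* peaks, and short peaks were common in the *wdr-5* list. The difference in length was not particular to the arms. Over the whole lists the medians were 833 bp (*jhdm-1*) and 495 bp (*wdr-5*), and in the centre of chromosome II 952 and 402 bp. How peaks of different replicates were cut or joined in making each union is not given in the sources used here. Whether this was done alike for the 2 lists is therefore unknown, which limits every comparison of numbers, lengths and gaps between them. The median length on the left arm was 462.5 bp in the *wdr-5* list (95% interval 430 to 495, quartiles 256.5 and 839.5) and 848 bp in the *jhdm-1* list (789 to 903, quartiles 488 and 1402). Right-arm medians were 550 bp (505 to 597, quartiles 304 and 891) and 787.5 bp (690 to 875, quartiles 414 and 1255), in the same order of lists. The *jhdm-1* median was thus 1.83 times the *wdr-5* median on the left arm and 1.43 times on the right, against 2.37 times in the centre. Between the arms the *wdr-5* median was lower on the left, but with peaks of at least 500 bp this order turned (891 bp left, 852 bp right), and the mean length was 731 bp on the left and 713 bp on the right. The intervals of the 2 *jhdm-1* medians overlapped, and with peaks of at least 500 bp they were 1053 and 1050 bp.

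The *wdr-5* list also held more very short peaks and more narrow gaps than the *jhdm-1* list. No *jhdm-1* peak of either arm was shorter than 200 bp, whereas 94 *wdr-5* peaks of the left arm (11.7%) and 43 of the right arm (7.64%) were, down to 46 bp. Neighbouring *wdr-5* peaks were separated by a median of 1570 bp (left) and 2399 bp (right), and neighbouring *jhdm-1* peaks by 4563 and 4637 bp. Gaps under 1 kb made up 40.5% and 32.2% of the gaps in the first list and 9.83% and 8.18% in the second. Merging across gaps of up to 1 kb turned the 804 and 563 *wdr-5* peaks into 479 and 382 regions and the 459 and 380 *jhdm-1* peaks into 414 and 349. The ratio of the medians was then 1.35 on the left arm and 1.18 on the right. Merging acts most on the list with more narrow gaps. Whether single regions were divided into several *wdr-5* peaks was not tested.

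**Figure D2:**
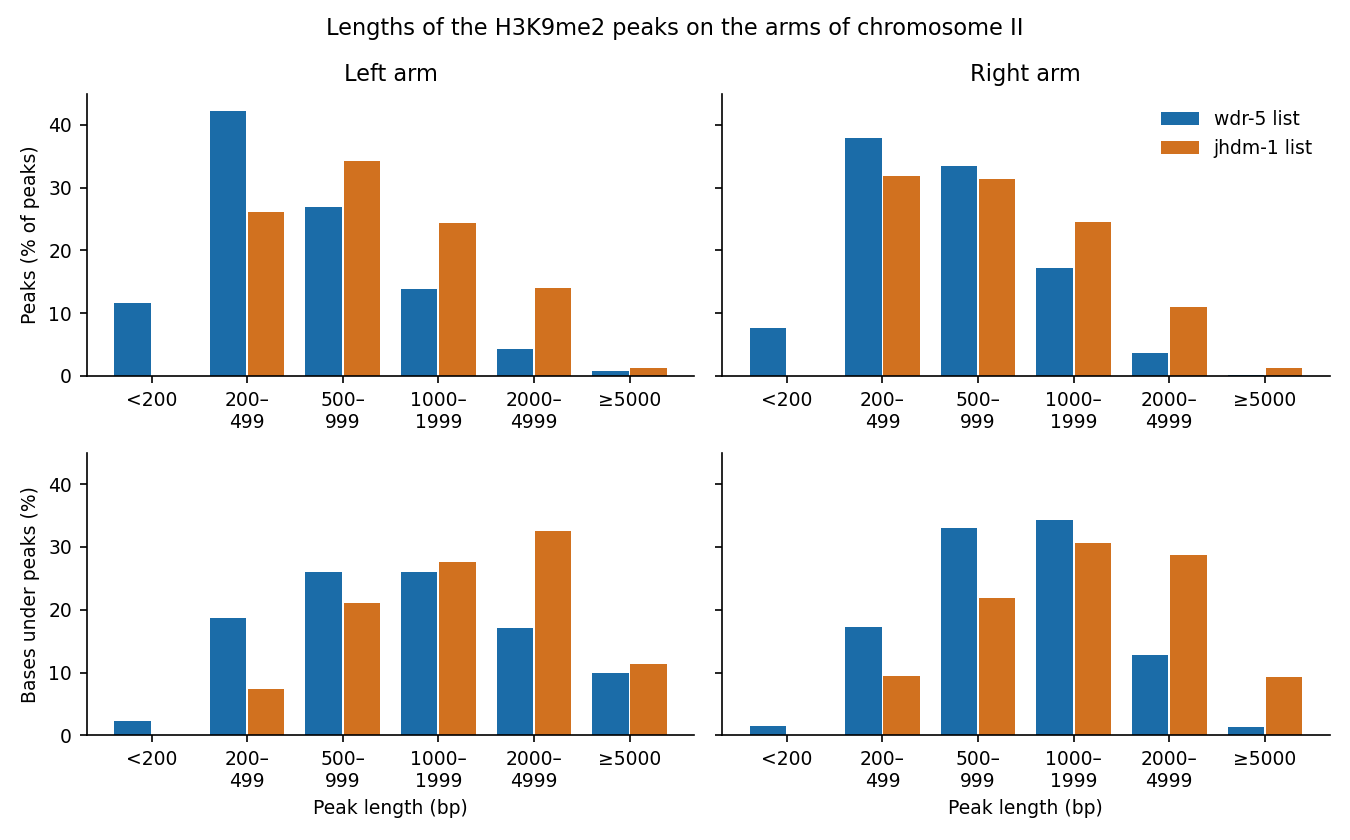
Percent of peaks (top) and percent of bases under peaks (bottom) in 6 length classes in bp on the x axis, for the left and right arm; bars start at 0, blue for the *wdr-5* list and orange for the *jhdm-1* list. Peaks of 200 bp to under 500 bp are the largest class of the *wdr-5* list on both arms (42.2% and 37.8% of peaks), and peaks of 2 kb to under 5 kb hold 32.6% and 28.7% of the bases in the *jhdm-1* list against 17.1% and 12.7% in the *wdr-5* list.

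Long peaks held a large part of the marked bases, and more of it on the left arm. Peaks of 2 kb or more numbered 42 (5.22%) on the left arm and 22 (3.91%) on the right arm in the *wdr-5* list, and 70 (15.3%) and 47 (12.4%) in the *jhdm-1* list. They held 27.0% and 14.0% of the bases under *wdr-5* peaks and 43.9% and 38.0% of those under *jhdm-1* peaks. Peaks of 5 kb or more numbered 7 and 1 in the *wdr-5* list and 6 and 5 in the *jhdm-1* list. The arms of chromosome II held 11 of the 67 *jhdm-1* peaks of that length (16.4%) and 8 of the 98 *wdr-5* peaks (8.16%), against 14.3% and 13.1% of all peaks of the lists.

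The longest peak of the whole *jhdm-1* list lay on the left arm, at chrII:1959415-1986552, and was 27138 bp long. In the *wdr-5* list the same stretch held 21 peaks of 151 to 3101 bp (median 331 bp), of which 13 were under 500 bp. All 21 lay inside the *jhdm-1* peak, with gaps of 43 to 1449 bp between them, and together covered 15014 bp or 55.3% of it. The next longest *jhdm-1* peaks of the arm also met several shorter *wdr-5* peaks. chrII:2001705-2011383 (9679 bp) met 8 *wdr-5* peaks that covered 47.9% of it, and chrII:2592804-2601113 (8310 bp) met 7 that covered 46.3%. The last of the 5 longest, chrII:1808715-1815392 (6678 bp) and chrII:3001998-3007739 (5742 bp), were covered to 31.5% by 4 and 7.98% by 2 *wdr-5* peaks.

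The longest *jhdm-1* peak of the right arm had almost no counterpart. It spanned chrII:13817727-13829515 (11789 bp) and ranked 6 by length in its list, and the 3 *wdr-5* peaks inside it were 57 to 170 bp long and covered 3.07% of it. The other 4 of the 5 longest were covered more. chrII:14301632-14310291 (8660 bp) was covered to 26.5% by 3 *wdr-5* peaks, chrII:14760636-14767405 (6770 bp) to 42.3% by 5, chrII:14687763-14693331 (5569 bp) to 17.1% by 3 and chrII:14141311-14146513 (5203 bp) to 35.3% by 3.

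The longest *wdr-5* peak of the left arm was at chrII:2461182-2473446 (12265 bp) and ranked 9 by length in its list. It met 4 *jhdm-1* peaks of 530 to 3733 bp that covered 43.4% of it. The next were chrII:1123873-1134071 (10199 bp, 45.9% under 3 *jhdm-1* peaks), chrII:1490248-1499909 (9662 bp, 27.9% under 2), chrII:2182618-2189459 (6842 bp, 9.03% under 2) and chrII:2875471-2882011 (6541 bp, 30.7% under 3). These long *wdr-5* peaks thus each met 2 to 4 shorter *jhdm-1* peaks, and the larger part of each lay outside them. Peaks picked as the longest of one list can be expected to meet shorter peaks of the other. Shorter counterparts at the longest peaks of either list are therefore not a result about the arms.

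*wdr-5* peaks of the right arm were shorter at the upper end. The longest, chrII:13189632-13194902 (5271 bp), ranked 92 in its list and met no *jhdm-1* peak, the nearest being 3402 bp away. The next longest, chrII:13590708-13594143 (3436 bp) and chrII:13732768-13736142 (3375 bp), each met 1 *jhdm-1* peak, which covered 15.3% and 25.8%. Next came chrII:15208899-15212184 (3286 bp), which met none, the nearest being 3817 bp away. The last of the 5, chrII:14370010-14372699 (2690 bp), was covered to 78.1% by a single *jhdm-1* peak of 2101 bp. Of the 5 longest *wdr-5* peaks, none of the left arm and 2 of the right arm thus lay outside the *jhdm-1* list.

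Closely spaced *wdr-5* peaks could be joined into longer clusters. The list is a union over 6 groups, so the peaks of a cluster may come from different groups. With gaps under 1 kb joined, the longest such cluster ran over chrII:2455398-2483866 on the left arm. It held 8 peaks of 510 to 12265 bp that covered 91.3% of its 28469 bp, and *jhdm-1* peaks covered 27.4%. A second left cluster, chrII:2174690-2196666, held 9 peaks that covered 88.9% of 21977 bp, with 13.7% under *jhdm-1* peaks. The longest cluster of the right arm was chrII:15204819-15219343, where 10 peaks covered 80.6% of 14525 bp and *jhdm-1* peaks covered 10.5%. Clusters of 3 or more *wdr-5* peaks numbered 70 of 479 merged regions on the left arm and 43 of 382 on the right. In the *jhdm-1* list they numbered 6 of 414 and 1 of 349.

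Not every cluster with many peaks was long. The most peaks in a left cluster, 10, lay in only 3981 bp at chrII:3162417-3166397. They were 46 to 236 bp long (median 88.5 bp), covered 30.7% of the stretch and met no *jhdm-1* peak. In the *jhdm-1* list the longest run that held more than 1 peak on the left arm was chrII:1004635-1014989, with 2 peaks over 10355 bp, of which *wdr-5* peaks covered 6.34%.

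**Figure D3:**
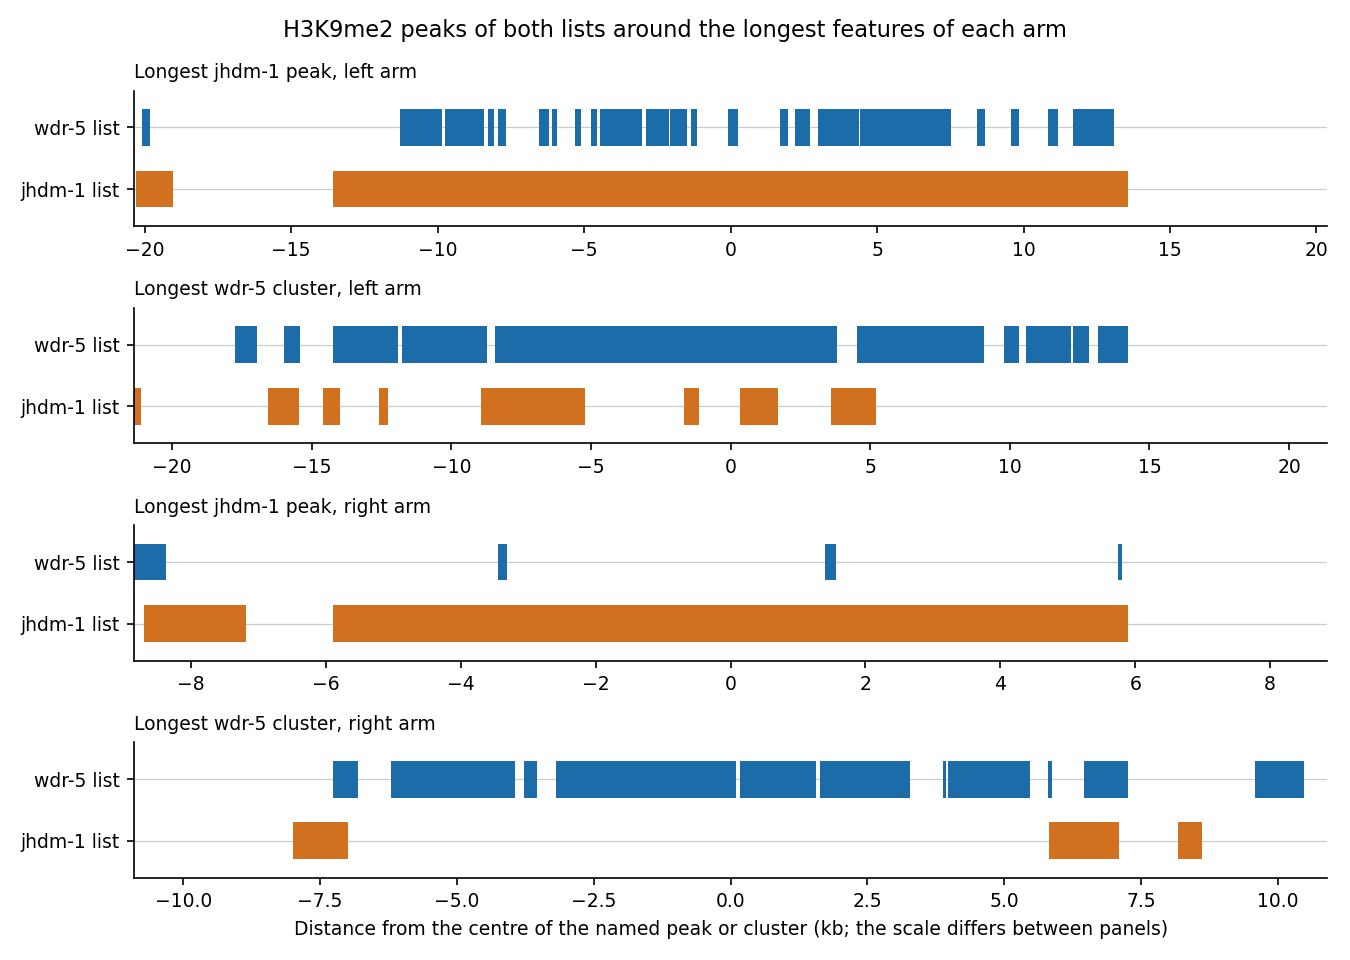
Peaks of the *wdr-5* list (blue) and the *jhdm-1* list (orange) around 4 features, with distance from the centre of the feature in kb on the x axis, drawn to scale within each panel and cut at the panel edge. The *jhdm-1* peak of 27138 bp spans 21 *wdr-5* peaks, the *wdr-5* cluster of 28469 bp is met by scattered *jhdm-1* peaks, the *jhdm-1* peak of 11789 bp holds 3 short *wdr-5* peaks, and the *wdr-5* cluster of 14525 bp is met by *jhdm-1* peaks near its ends.

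Many peaks of either list had no counterpart in the other, on the arms as over the whole lists. Overlap was counted from 1 bp. The lists shared 2 wild-type libraries, so their overlap describes the lists and is not independent evidence for a peak. In the *wdr-5* list 354 of 804 left peaks (44.0%, Wilson 95% interval 40.6 to 47.5) and 230 of 563 right peaks (40.9%, 36.9 to 45.0) overlapped. In the *jhdm-1* list 257 of 459 left peaks (56.0%, 51.4 to 60.5) and 186 of 380 right peaks (48.9%, 44.0 to 54.0) did. Over the whole lists 41.0% of *wdr-5* peaks and 55.4% of *jhdm-1* peaks overlapped. The arm shares were near these, except that the right-arm interval of the *jhdm-1* list lay below 55.4%. The share was higher on the left arm in both lists, with intervals that overlapped. In the *wdr-5* list this order turned when the overlap had to reach 50% of both peaks (9.33% left, 10.8% right). It also turned with peaks within 1 kb counted (55.3% and 56.3%) and, by a little, with peaks merged (47.6% and 47.9%). In the centre the share was 45.1% (37.1 to 53.3) of *wdr-5* peaks and 36.3% (28.9 to 44.4) of *jhdm-1* peaks. In the *jhdm-1* list the centre interval thus lay below that of the left arm and met that of the right. *wdr-5* peaks covered 1.13% of the centre against 12.0% and 12.3% of the arms. An overlap by position alone was therefore less likely in the centre, which was not adjusted for.

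Fewer bases than peaks were shared. The lists had 192.6 kb in common on the left arm, 32.8% of the bases under *wdr-5* peaks and 34.7% of those under *jhdm-1* peaks, and 113.5 kb on the right arm, 28.3% and 27.7%. A *wdr-5* peak that overlapped was mostly covered, by a median of 90.8% of its length on the left arm and 85.2% on the right. An overlapping *jhdm-1* peak was covered by a median of 59.2% and 48.7%. Among *jhdm-1* peaks, 65 on the left arm and 34 on the right met 2 or more *wdr-5* peaks, whereas 10 and 1 of the *wdr-5* peaks met 2 or more *jhdm-1* peaks.

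Longer *jhdm-1* peaks overlapped more often. On the left arm the overlapping share was 41.7% of *jhdm-1* peaks of 200 bp to under 500 bp, 53.5% of those up to 1 kb, 59.8% of those up to 2 kb, 78.1% of those up to 5 kb and all 6 of 5 kb or more. For the same classes of the right arm it was 28.9%, 47.1%, 63.4%, 73.8% and all 5. A longer peak offers more bases to overlap, which was not adjusted for. The share among *wdr-5* peaks of the left arm was also higher in longer classes, from 35.1% under 200 bp to 77.1% from 2 kb to under 5 kb and all 7 of 5 kb or more. *wdr-5* peaks of the right arm had no such order. Their share was 51.2% of the 43 peaks under 200 bp (Wilson interval 36.8% to 65.4%) and 37.6%, 33.0% and 57.7% in the next classes. It was 47.6% of the 21 peaks from 2 kb to under 5 kb (28.3% to 67.6%) and 0 of 1 above that (0 to 79.3%). These intervals are wide, and shares by class over the whole lists are not given here.

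**Figure D4:**
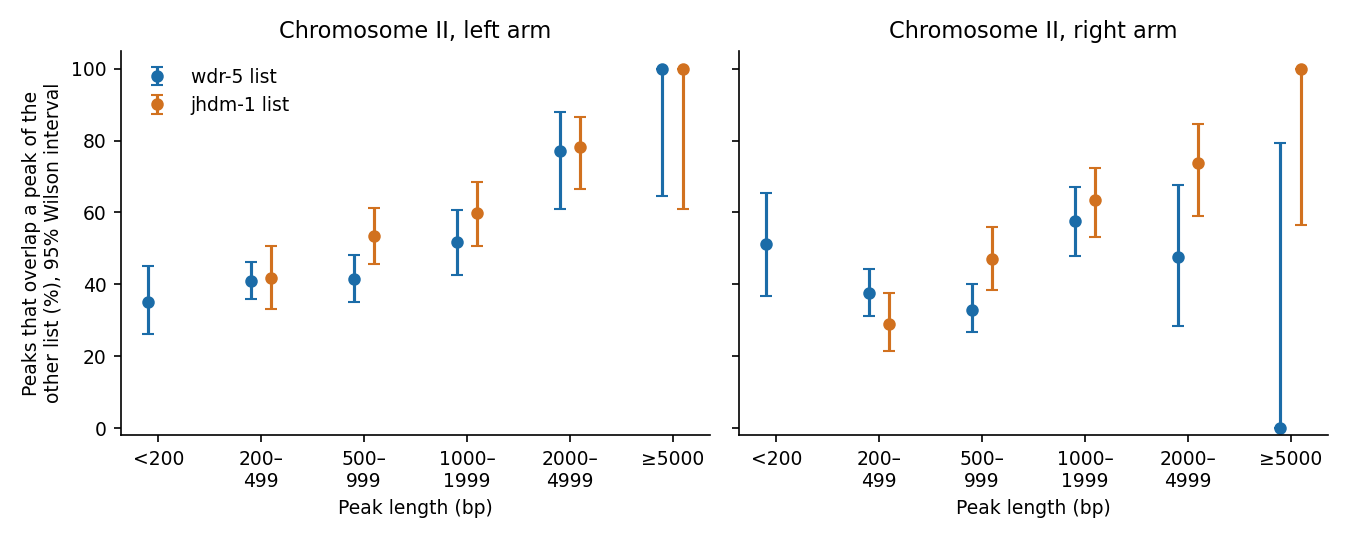
Percent of peaks that overlap a peak of the other list by at least 1 bp (y axis) against peak length class in bp (x axis), for the left and right arm, blue for the *wdr-5* list and orange for the *jhdm-1* list; bars are 95% Wilson intervals for counting error. The share rises from 41.7% to 100% (left) and from 28.9% to 100% (right) in the *jhdm-1* list and from 35.1% to 100% in the *wdr-5* list on the left arm, while on the right arm the *wdr-5* share has no such order.

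Where a single peak of each list met, the edges seldom coincided. There were 176 such one-to-one pairs on the left arm and 152 on the right. The starts differed by a median of 263 and 363 bp and the ends by a median of 240 and 281 bp. In 54.0% of left pairs and 61.2% of right pairs the *jhdm-1* peak exceeded the *wdr-5* peak in length. The bases shared made up a median of 34.5% of the bases under either peak on the left arm and 29.1% on the right, and reached 50% in 64 and 51 pairs. On the left arm the *jhdm-1* peak lay inside the *wdr-5* peak more often than the reverse (54 against 39 pairs), and on the right arm less often (29 against 37).

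The closest pairs nearly coincided. On the left arm chrII:3365350-3366098 in the *wdr-5* list and chrII:3365328-3366101 in the *jhdm-1* list shared 749 bp, 96.8% of their joint length, with the starts 22 bp and the ends 3 bp apart. The pairs at chrII:632932-634077 and chrII:2163264-2164836 (*wdr-5* positions) shared 93.9% and 92.0%. The closest right-arm pair was chrII:12110916-12111498 and chrII:12110891-12111477, which shared 92.4%. The pairs at chrII:15043733-15045095 and chrII:12285436-12286753 shared 86.8% and 85.4%. No edge in these pairs differed by more than 180 bp.

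Most peaks without an overlap lay at least 1 kb from every peak of the other list. The nearest peak of the other list was a median of 3182 bp away for the 450 such *wdr-5* peaks of the left arm and 2325 bp for the 333 of the right arm. For the 202 and 194 such *jhdm-1* peaks it was 3124 and 2069 bp. Between 19.3% and 28.4% of them lay within 1 kb of a peak of the other list. The higher shares were those of the right arm (26.1% and 28.4%). Peak density was also higher on the right arm, 172.9 against 164.8 per Mb (*wdr-5*) and 116.7 against 94.1 (*jhdm-1*), which was not adjusted for. Peaks without an overlap were shorter than those with one. The medians were 437.5 against 545 bp (left) and 523 against 593 bp (right) in the *wdr-5* list, and 697.5 against 931 bp and 594.5 against 1033 bp in the *jhdm-1* list.

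Among arm peaks of every length, 56.0% (left) and 59.1% (right) of *wdr-5* peaks and 44.0% and 51.1% of *jhdm-1* peaks had no overlap. The share for peaks of 2 kb or more over the whole lists is not given here. Of the peaks of 2 kb or more, 8 of 42 on the left arm and 12 of 22 on the right arm of the *wdr-5* list met no *jhdm-1* peak. In the *jhdm-1* list 14 of 70 and 11 of 47 met no *wdr-5* peak. The longest such *wdr-5* peaks of the left arm were chrII:2504877-2508310 (3434 bp), chrII:1344307-1347560 (3254 bp) and chrII:1201522-1204632 (3111 bp), with the nearest *jhdm-1* peak 1697, 10516 and 2755 bp away. The right arm had, after the 2 described above, chrII:15138005-15140378 (2374 bp). The longest *jhdm-1* peaks without a counterpart were chrII:650658-653915 (3258 bp), chrII:2868018-2871068 (3051 bp) and chrII:1630303-1633071 (2769 bp) on the left arm. Those of the right arm were chrII:15007204-15011716 (4513 bp), chrII:13656607-13660610 (4004 bp) and chrII:14769922-14772648 (2727 bp). The last of these lay only 27 bp from a *wdr-5* peak, and the other 2 lay 1044 and 1316 bp from one.

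Long stretches without a peak in one list held peaks of the other, sparser there than over the whole arm. Over the whole arms, *wdr-5* peaks covered 12.0% (left) and 12.3% (right), and *jhdm-1* peaks 11.4% and 12.6%. The longest stretch of the arms without a *wdr-5* peak was 207.4 kb, at chrII:4476754-4684176 near the left boundary, and held 9 *jhdm-1* peaks with 4.95 kb in all. One of these, chrII:4576351-4576991 (641 bp), lay 99.6 kb from the nearest *wdr-5* peak, the greatest such distance on either arm. The second stretch of the left arm, chrII:3815894-3908262 (92.4 kb), overlapped the longest stretch without a *jhdm-1* peak, chrII:3834193-3934649 (100.5 kb). It held 3 *jhdm-1* peaks, and the *jhdm-1* stretch held 6 *wdr-5* peaks with 1.94 kb.

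The other stretch without a *jhdm-1* peak on the left arm, chrII:2078635-2155248 (76.6 kb), held 9 *wdr-5* peaks with 3.53 kb. The longest right-arm stretches without a *wdr-5* peak were chrII:14575097-14655997 (80.9 kb, 7 *jhdm-1* peaks) and chrII:14879724-14935620 (55.9 kb, 3 *jhdm-1* peaks). Those without a *jhdm-1* peak were chrII:14407654-14491796 (84.1 kb, 4 *wdr-5* peaks) and chrII:12386036-12434513 (48.5 kb, 6 *wdr-5* peaks). Each of these 8 stretches thus contained at least 3 peaks of the other list, which covered a smaller share of it than of its arm.

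The outermost peaks of the lists overlapped at both chromosome ends, and the *jhdm-1* peak reached further out at each. The outermost *wdr-5* peak of the left arm, chrII:16397-16860, lay wholly inside the outermost *jhdm-1* peak, chrII:15782-18284. The outermost *wdr-5* peak of the right arm, chrII:15274365-15275601, lay wholly inside chrII:15274010-15276151. At the inner boundaries the nearest peaks were as follows. On the left the last *wdr-5* peak in the arm was chrII:4701522-4701639, 178.4 kb before the boundary, and the first one beyond it was chrII:4896923-4897265, 17.1 kb into the centre. The *jhdm-1* peaks on either side were chrII:4872357-4873493 (7.08 kb before) and chrII:4896086-4899133 (17.6 kb beyond). On the right the *wdr-5* peaks were chrII:12011020-12011586 (8.70 kb into the centre) and chrII:12022273-12023561 (2.92 kb into the arm), and the *jhdm-1* peaks were chrII:12005525-12006521 (14.0 kb) and chrII:12037239-12037471 (17.4 kb).

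The arms were set against the other autosomes with the same division for all. For this, all chromosomes were cut into 3 equal parts, which places the left and right outer parts of chromosome II beside the 8 outer parts of chromosomes I, III, IV and V. The right outer part extends 1.84 Mb beyond the right arm into the centre, and its density and coverage are lower than those of the arm (in the *wdr-5* list 124.3 against 172.9 peaks per Mb). In the *wdr-5* list the outer parts of chromosome II had 158.7 (left) and 124.3 (right) peaks per Mb and ranked 7 and 8 of 10, where the other 8 ran from 76.6 to 243.1 with a median of 189.2. They were covered to 11.6% and 8.65%, also ranks 7 and 8, against 4.82% to 26.4% and a median of 15.2%. In the *jhdm-1* list the outer parts had 91.1 and 91.7 peaks per Mb (ranks 7 and 6, others 46.5 to 125.6, median 102.6). They were covered to 11.0% and 9.86% (ranks 5 and 8, others 5.07% to 14.1%, median 11.1%).

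The right outer part of chromosome II had 44.8% (40.3 to 49.3) of its *jhdm-1* peaks overlapping the *wdr-5* list, rank 10 of 10, against 56.0% (51.5 to 60.5) in the left outer part and 50.6% to 73.1% in the other 8, whose median was 57.4%. This rank included 87 peaks on the centre side of the arm boundary, of which 23 overlapped (26.4%, 18.3 to 36.6). The right arm itself had 48.9%, with an interval (44.0 to 54.0) that took in the lowest of the other 8. Seen from the *wdr-5* list, the right outer part of chromosome II was unremarkable, with 40.6% (36.8 to 44.5) and rank 5, and the left outer part ranked 3 with 44.3% (40.9 to 47.8), where the others ran from 37.3% to 45.8%. Over the whole lists 41.0% of *wdr-5* peaks and 55.4% of *jhdm-1* peaks overlapped. The median lengths, 462.5 and 533 bp in the *wdr-5* list and 850.5 and 795 bp in the *jhdm-1* list, lay within those of the other outer parts (431 to 607 and 788.5 to 916 bp). These ranks are descriptions of the lists with no test, since no replicate is available for them.

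**Figure D5:**
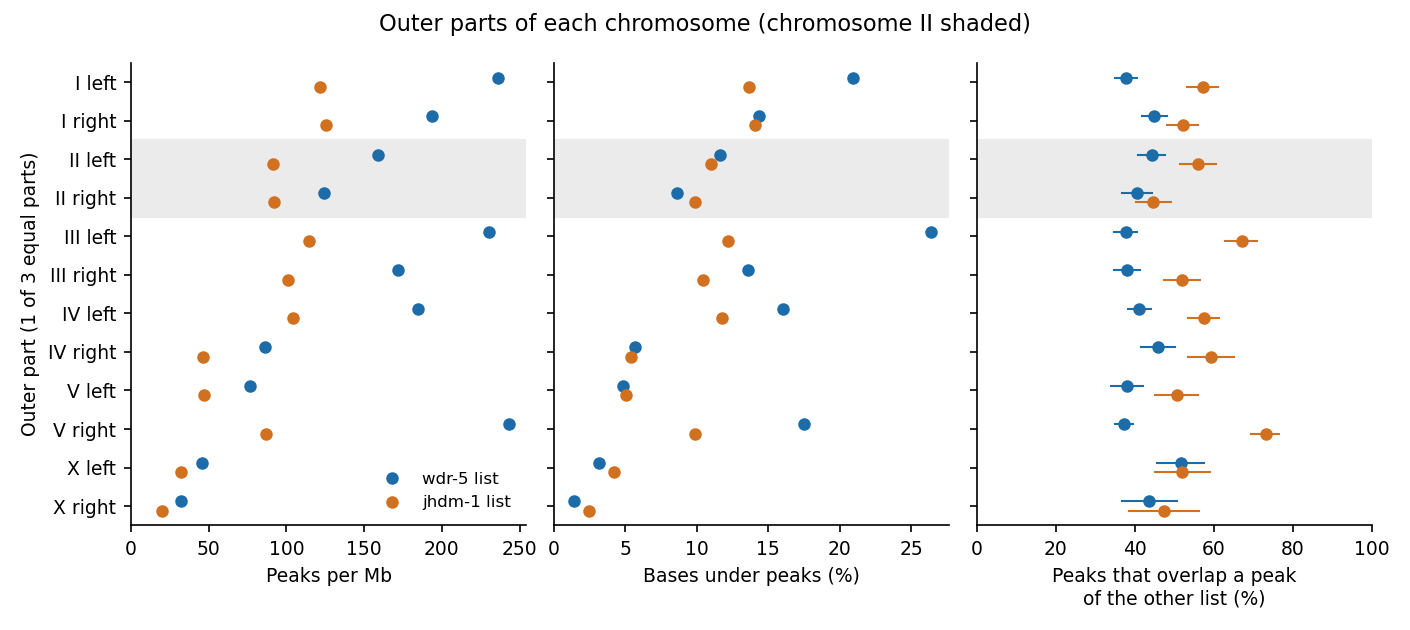
Peaks per Mb, percent of bases under peaks and percent of peaks that overlap the other list (x axes, with 95% Wilson intervals in the last panel) in the left and right outer part of each chromosome (y axis), with chromosome II shaded; blue is the *wdr-5* list and orange the *jhdm-1* list. The *jhdm-1* overlap in the right outer part of chromosome II is 44.8%, where the right arm as defined has 48.9%, and its *wdr-5* density (124.3 per Mb) is below the median of the other 8 (189.2 per Mb).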

How the data were processed

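Filtered reads were mapped by the authors to WS220/ce10 using Bowtie2, and broad peaks were called for each replicate using MACS2 2.1.1. Peaks seen in fewer than 2 replicates of every group were dropped. The deposited lists, 1 per experiment, have 3 columns (chromosome, start, end). The values are positions, without a score, count or coverage, so depth is unknown and no groups were compared.

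Lists were read as deposited, without a filter. Positions are printed from 1. Peaks were assigned to arms by midpoint. An overlap of 1 bp or more made a peak shared, with counts checked against bedtools 2.31.1. The overlap functions were tested on simulated lists. Computations used Python 3.11.15, numpy 2.4.6 and scipy 1.17.1, and plots matplotlib 3.10.9. Shares have Wilson intervals, medians order-statistic intervals and density ratios intervals for Poisson counts on the log scale.

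Regions were named by rule: in each list and arm the 5 longest peaks, the 3 that met most peaks of the other list, the 3 longest without overlap, the outermost peak, the peaks at the boundary, the 2 longest stretches without a peak and the highest 3 and lowest 250 kb windows, and the 3 closest pairs of each arm. The clusters, the most isolated peak and the maps were added after values had been seen. Members and rules were chosen with earlier results of these data known.

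Alternatives were other overlap rules, boundaries and minimum lengths, merging and 500 kb windows. The gene table used here is on another build (WBcel235), so peaks are given without a gene, exon or UTR, and no sequence is shown.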

Additional observations from a re-analysis of the deposited data

How the results depend on the processing

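Of 102 alternative values for 22 results, 67 stayed within the limits set, 33 moved and 2 reversed. The limit for counts and coverage was wide, a factor of 1.5. It took in 382 merged right *wdr-5* regions in place of 563 peaks, and 8.65% coverage in place of 12.3%. Membership by any base or by the whole peak could change no count, since no peak crossed a boundary. The number that stayed is therefore not a measure of robustness. The reversed values were the ratio of left to right density in the *wdr-5* list, 1.03 with boundaries 0.5 Mb nearer the ends and 1.28 in the outer 2 of 3 equal parts. With peaks of at least 500 bp it was 0.806 and with peaks merged within 1 kb 0.837, and the *jhdm-1* ratio was 0.994 in the outer parts. With peaks of at least 500 bp the *wdr-5* list held 371 left and 307 right peaks, and medians were 891 and 852 bp (*wdr-5*, an order of the arms that had turned) and 1053 and 1050 bp (*jhdm-1*). Merging gave 479 left *wdr-5* regions and *wdr-5* medians of 657 and 708.5 bp.

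The overlap share depended most on its definition. In the order *wdr-5* left, *wdr-5* right, *jhdm-1* left and *jhdm-1* right it was 34.7%, 31.3%, 32.0% and 24.2% with an overlap of 50% of the peak counted, and 9.33%, 10.8%, 16.3% and 16.1% with 50% of both peaks. It was 55.3%, 56.3%, 64.5% and 63.4% with peaks within 1 kb counted, and 32.8%, 28.3%, 34.7% and 27.7% in base pairs. With peaks of at least 500 bp it was 36.5% (*wdr-5* right), 41.0% (*jhdm-1* left) and 38.6% (*jhdm-1* right). With peaks merged it was 47.6% and 47.9% in the *wdr-5* list. The higher share on the left arm thus turned in the *wdr-5* list with 50% of both peaks, with 1 kb allowed and, by a little, with merging. The cause was not tested. No paired analysis was possible because each list pools its replicates, and for the same reason no replicate could be left out. The lists hold no score, so a minimum length stood in for a stricter threshold.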
